A study of Mus musculus with 16 samples.

Results

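The 10 genes described here mark or regulate resident liver macrophages, the Kupffer cells: Clec4f, Timd4, Vsig4, Cd163, Marco, Cd5l, Folr2, Nr1h3, Id3 and Spic. They were chosen by symbol, and are 10 of the 55416 genes with a row in the count tables. All 10 passed the filter on low counts, which left 14770 genes. RNA was measured by sequencing poly(A)-selected, strand-marked libraries of whole liver from 16 C57BL/6J wild-type mice of 8 weeks, 4 in each of 4 groups. Through the tail vein each mouse was given Ad-CTRL, a control adenovirus, or Ad-FAT10, which overexpresses FAT10, the ubiquitin-like modifier encoded by Ubd. Then, 4 days later, each mouse was gavaged with pemafibrate, an agonist of the nuclear receptor PPARα, at 1 mg per kg, or with its vehicle CMC. The gavages were given 18 h and 5 h before the livers were collected, and all mice were fasted for 5 h. The groups are named by virus and treatment, with Pema for pemafibrate. Every mouse carried an adenovirus, and neither the promoter that drove FAT10 nor the liver cells that made it are described in the sources used here. Because whole liver was sequenced, fewer cells of a type and less of a transcript per cell cannot be told apart in any value below.

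Kupffer cells are macrophages of embryonic origin that sit in the liver sinusoids and take up particles, bacteria and aged red cells from the blood. Their identity is maintained by signals from neighbouring endothelial cells, stellate cells and hepatocytes, among them BMP9, BMP10, Notch ligands, CSF1 and IL-34, and by transcription factors that include LXRα and ID3. When resident cells are lost, monocytes from the blood can enter the niche and take on parts of the resident programme, some genes early and others late. Nr1h3, which encodes LXRα, and Id3 are also transcribed in other liver cells, whereas Clec4f is a marker of Kupffer cells in the mouse.

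Library totals ranged from 18663498 to 28898229 counts, and a floor of 3 counts corresponded to 0.089 to 0.176 CPM (counts per 1000000 counts of a library), which covers counting error only. Ubd, the mouse gene for FAT10, followed the virus labels, and with Ad-FAT10 it also differed by treatment. With the control virus it lay at 8.64 to 15.2 CPM under CMC and at 14.2 to 47.8 CPM under pemafibrate. With Ad-FAT10 it lay at 110.5 to 339.3 CPM and at 391.3 to 545.8 CPM, which did not overlap. The contrast of pemafibrate with CMC in Ad-FAT10 livers, and the interaction, therefore compare livers that differ in Ubd as well as in drug. The hepatocyte transcript Alb stood at 28710 CPM or more in every library, as the tissue label gives. CPM values were taken after the libraries were scaled by TMM, a correction for differences in composition.

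The windows of 250 bases upstream of the annotated starts are shown for the 4 genes that lay lowest in Ad-FAT10 livers relative to Ad-CTRL livers and for the 2 that lay higher. They are RefSeq sequences of build GRCm38.p6, written 5′ to 3′ on the strand of the gene, and capitals mark 3 motifs searched on both strands. These were GAGGAA, a core of the box bound by PU.1, AGGTCA, a core hexamer of nuclear receptor elements, and TGCTGA, a core of MAF elements. Clec4f lies on the minus strand (chr6:83656117-83656366), Timd4 on the plus strand (chr11:46810549-46810798), Vsig4 on the minus strand (chrX:96293439-96293688) and Cd163 on the plus strand (chr6:124304401-124304650). Cd5l lies on the plus strand (chr3:87357631-87357880) and Spic on the minus strand (chr10:88683024-88683273).
Clec4f: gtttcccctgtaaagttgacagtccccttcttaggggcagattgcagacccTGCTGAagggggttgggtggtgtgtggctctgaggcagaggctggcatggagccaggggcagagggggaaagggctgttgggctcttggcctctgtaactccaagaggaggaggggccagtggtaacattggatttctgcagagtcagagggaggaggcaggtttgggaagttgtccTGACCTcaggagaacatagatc
Timd4: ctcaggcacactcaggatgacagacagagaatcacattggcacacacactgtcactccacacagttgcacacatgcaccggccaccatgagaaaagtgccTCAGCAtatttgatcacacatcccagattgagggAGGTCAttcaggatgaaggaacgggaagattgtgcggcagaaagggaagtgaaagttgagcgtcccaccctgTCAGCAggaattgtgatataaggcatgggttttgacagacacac
Vsig4: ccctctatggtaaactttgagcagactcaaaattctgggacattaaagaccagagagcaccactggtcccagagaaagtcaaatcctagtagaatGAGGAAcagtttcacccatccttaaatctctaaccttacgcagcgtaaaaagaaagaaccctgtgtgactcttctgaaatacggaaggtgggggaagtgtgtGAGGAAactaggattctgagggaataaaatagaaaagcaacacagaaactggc
Cd163: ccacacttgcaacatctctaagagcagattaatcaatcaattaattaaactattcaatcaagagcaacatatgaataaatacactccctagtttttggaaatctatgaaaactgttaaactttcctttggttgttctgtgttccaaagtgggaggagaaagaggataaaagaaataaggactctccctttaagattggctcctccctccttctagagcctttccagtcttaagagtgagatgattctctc
Cd5l: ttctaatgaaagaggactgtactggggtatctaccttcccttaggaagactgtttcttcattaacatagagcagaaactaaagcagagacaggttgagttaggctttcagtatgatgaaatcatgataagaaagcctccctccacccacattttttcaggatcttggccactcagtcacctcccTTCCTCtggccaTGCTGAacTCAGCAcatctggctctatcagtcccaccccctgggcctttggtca
Spic: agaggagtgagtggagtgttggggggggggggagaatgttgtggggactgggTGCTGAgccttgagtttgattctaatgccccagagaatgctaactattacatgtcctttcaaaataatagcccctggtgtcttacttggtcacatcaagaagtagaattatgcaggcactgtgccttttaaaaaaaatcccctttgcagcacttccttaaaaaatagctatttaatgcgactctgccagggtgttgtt

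GAGGAA was found in the windows of 4 of the 10 genes (Vsig4, Marco, Cd5l and Id3), and in 23.3% of all 32851 annotated windows of that length. AGGTCA was found in 2 of 10, Clec4f and Timd4, and in 14.0% of all windows. TGCTGA was found in 5 of 10, Clec4f, Timd4, Cd5l, Folr2 and Spic, and in 16.1% of all windows. The 4 genes that moved together therefore carried different letters: Clec4f and Timd4 held AGGTCA and TGCTGA, Vsig4 held GAGGAA at 2 places, and Cd163 held none of the 3. TGCTGA was present on both sides of the contrast, in Clec4f and Timd4 as well as in Cd5l and Spic. The 10 were counted by gene, with 2 windows pooled for Folr2 and for Nr1h3, whereas the shares are of single windows. A match describes letters and is not a bound site.

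In Ad-CTRL CMC livers the 10 transcripts spanned a wide range of levels per kilobase of exon. Cd5l lay highest at 75.8 ± 14.8 CPM per kb (SD, n = 4), followed by Nr1h3 at 50.5 ± 2.66 CPM per kb. Clec4f at 35.6 ± 4.35 and Id3 at 34.1 ± 8.33 CPM per kb did not differ beyond their spread, and neither did Marco at 16.1 ± 5.38 and Vsig4 at 14.1 ± 1.62 CPM per kb. Timd4 at 5.96 ± 0.557 and Cd163 at 3.10 ± 0.376 CPM per kb were lower. Folr2 at 1.10 ± 0.133 and Spic at 0.891 ± 0.121 CPM per kb were the lowest of the 10.

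The difference between Ad-FAT10 and Ad-CTRL livers under CMC is given first, as a description without a test, because the genes were proposed with the falls of resident macrophage markers in this contrast in view. In it, the 4 surface receptors Clec4f, Timd4, Vsig4 and Cd163 stood 7.41-fold to 11.7-fold lower in Ad-FAT10 livers, Marco stood 2.51-fold lower, and Cd5l and Spic stood 1.70-fold and 2.17-fold higher. The remaining genes, Folr2, Nr1h3 and Id3, had log2 changes of -0.58, -0.32 and -0.42, beside 0.77 for Cd5l. Groups overlapped for Folr2 and Id3 but not for Nr1h3. The set did not move as a block.

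Clec4f (ENSMUSG00000014542), a C-type lectin, measured 76.7, 90.2, 101.9 and 83.4 CPM in the 4 Ad-CTRL CMC livers and 17.3, 14.9, 9.57 and 5.94 CPM in the 4 Ad-FAT10 CMC livers. Every Ad-FAT10 liver lay below every Ad-CTRL liver. Timd4 (ENSMUSG00000055546), a phosphatidylserine receptor for dying cells, measured 12.1, 13.03, 14.6 and 12.1 CPM against 1.97, 1.68, 0.506 and 0.412 CPM. Here too the groups stood apart, and Ad-FAT10 mice 3 and 4 lay below mice 1 and 2. Vsig4 (ENSMUSG00000044206), a complement receptor, measured 18.1, 23.9, 21.6 and 20.4 CPM against 3.49, 3.36, 1.52 and 1.51 CPM. Cd163 (ENSMUSG00000008845), the scavenger receptor for haemoglobin bound to haptoglobin, measured 14.0, 18.2, 18.4 and 17.2 CPM against 2.57, 2.03, 1.34 and 1.13 CPM. In all 4 genes the lowest level was that of Ad-FAT10 CMC mouse 4.

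The other receptors moved less. Marco (ENSMUSG00000026390), a scavenger receptor with a collagenous domain, measured 25.2, 36.2, 42.7 and 19.8 CPM in Ad-CTRL CMC and 15.4, 16.1, 10.0 and 8.14 CPM in Ad-FAT10 CMC livers. The groups did not overlap, but the lowest Ad-CTRL and the highest Ad-FAT10 liver were close. Folr2 (ENSMUSG00000032725), the folate receptor beta, ranged from 1.43 to 1.89 CPM and from 0.765 to 1.79 CPM, so the groups overlapped. Folr2 rested on 14 to 41 counts per library, and an antisense gene that overlaps it in the annotation, Gm10602, averaged 0.429 CPM. The sources used here do not give the strand setting of the counting, so reads of Folr2 and of its antisense partner may not have been separated.

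The secreted product and one of the regulators went the other way. Cd5l (ENSMUSG00000015854), which encodes a secreted scavenger protein that inhibits apoptosis of macrophages, measured 125.1, 148.2, 196.7 and 147.1 CPM in Ad-CTRL CMC livers. In Ad-FAT10 CMC livers it measured 314.6, 280.1, 219.7 and 237.4 CPM, all above the Ad-CTRL range. Spic (ENSMUSG00000004359), a transcription factor of the PU.1 family known for its role in macrophages that recycle iron, measured 3.70, 2.77, 3.42 and 3.81 CPM against 8.03, 8.07, 7.51 and 6.08 CPM. Its groups did not overlap either. Nr1h3 (ENSMUSG00000002108) ranged from 121.2 to 136.3 CPM in Ad-CTRL CMC and from 96.1 to 106.0 CPM in Ad-FAT10 CMC livers. That difference was -0.32 on the log2 scale, and -0.03 when the libraries were compared by their totals with no scaling factor. Id3 (ENSMUSG00000007872), an inhibitor of helix-loop-helix transcription factors, ranged from 45.1 to 79.3 CPM and from 30.4 to 63.3 CPM, and its groups overlapped. In all, 6 of the 10 genes were lower and 2 higher with no overlap of the groups, where 17.8% of all genes tested were lower and 20.3% higher in that way. Since this contrast chose the genes, nothing is read from these counts.

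**Figure D1:**
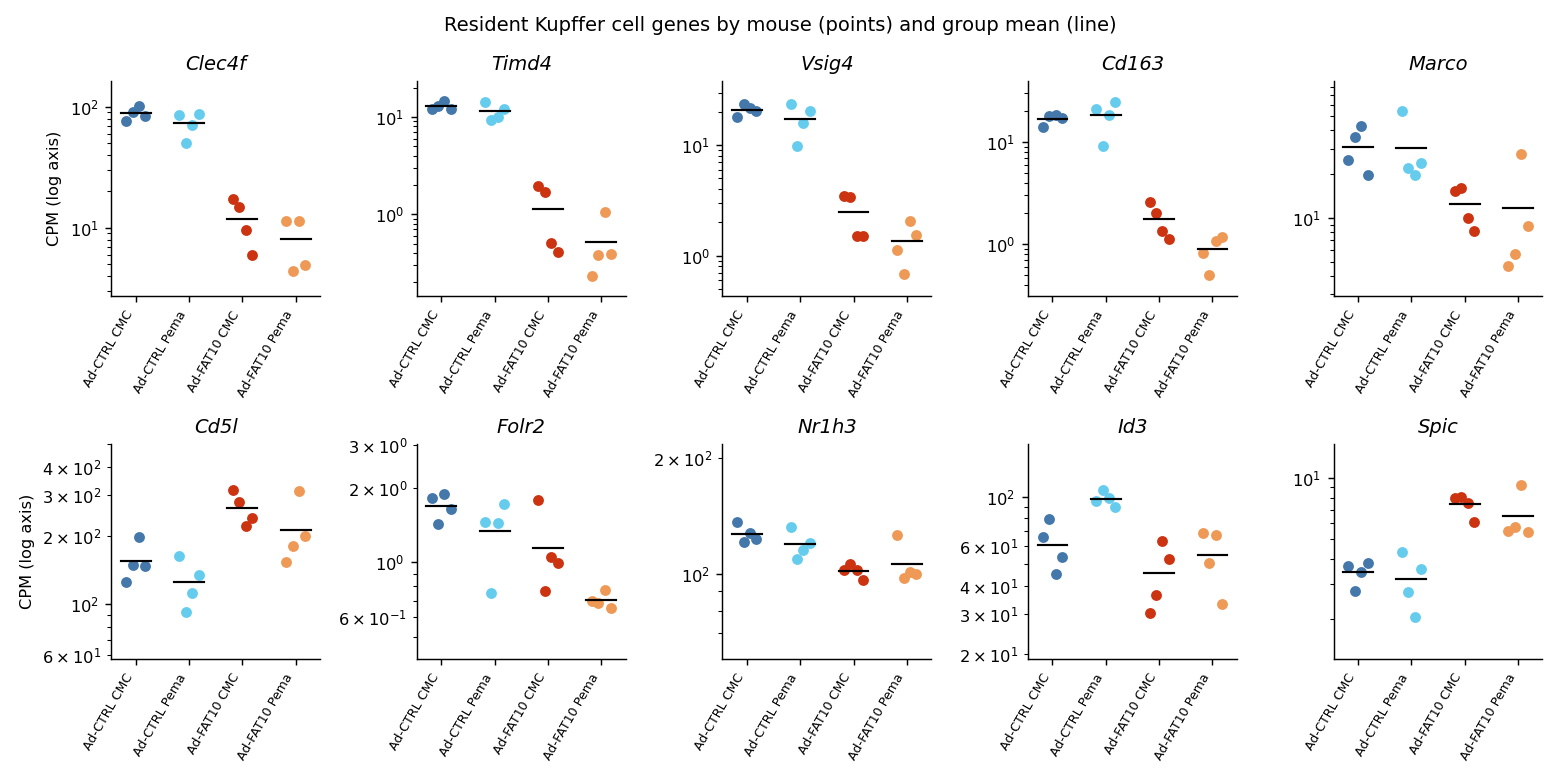
CPM of the 10 genes on a log axis, with 1 point per mouse and a line at the mean of each group of 4 mice. Clec4f, Timd4, Vsig4 and Cd163 lie lower in every Ad-FAT10 liver than in any Ad-CTRL liver, and Spic lies higher.

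The same contrast was tested in the pemafibrate-treated mice, which are separate animals, although results for these libraries were also known when the genes were chosen. With Ad-FAT10 the 4 surface receptors were low here too, and 9 of the 10 genes passed the test. Because the genes were chosen with these results known, the calls and p-values describe this contrast and are no independent support. Lower in Ad-FAT10 Pema than in Ad-CTRL Pema livers were 7 genes, Clec4f, Timd4, Vsig4, Cd163, Marco, Folr2 and Id3. Higher were 2, Cd5l and Spic. Among all genes tested 20.5% were called lower and 21.2% higher (41.7% in either direction), at an adjusted p under 0.05 in edgeR's quasi-likelihood test with Benjamini-Hochberg adjustment over 14770 genes. The median log2 change of the 10 genes was -1.14, and that of all genes tested was -0.02.

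Clec4f measured 85.2, 50.3, 70.8 and 86.8 CPM in Ad-CTRL Pema livers and 11.5, 4.39, 11.3 and 4.98 CPM in Ad-FAT10 Pema livers. It was 9.09-fold lower (log2 change -3.18 ± 0.32 SE, edgeR adjusted p = 2.34e-06), and each of the 4 Ad-FAT10 livers lay below the Ad-CTRL range. Timd4 measured 14.4, 9.24, 10.1 and 12.1 CPM against 0.232, 0.381, 1.07 and 0.390 CPM. Its fall was 21.1-fold (log2 change -4.40 ± 0.40, edgeR adjusted p = 7.38e-07) and rested on 6 to 36 counts in the Ad-FAT10 Pema libraries. Vsig4 measured 23.4, 9.94, 16.01 and 20.4 CPM against 1.12, 0.686, 2.05 and 1.53 CPM, a 12.7-fold fall (log2 change -3.66 ± 0.32, edgeR adjusted p = 6.56e-07). Cd163 measured 20.8, 9.24, 18.4 and 24.8 CPM against 0.811, 0.496, 1.07 and 1.17 CPM, a 20.3-fold fall (log2 change -4.34 ± 0.31, edgeR adjusted p = 1.02e-07). In none of these 4 genes did the groups overlap.

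Marco measured 54.8, 22.0, 19.7 and 23.8 CPM in Ad-CTRL Pema and 4.63, 5.68, 27.4 and 8.75 CPM in Ad-FAT10 Pema livers. Ad-CTRL mouse 1 and Ad-FAT10 mouse 3 stood above the rest of their groups, and the groups overlapped. Marco passed the test (log2 change -1.35 ± 0.46, edgeR adjusted p = 0.0242), but not without Ad-CTRL Pema mouse 1 (log2 change -0.90, adjusted p = 0.129), nor without Ad-FAT10 Pema mouse 1, 2 or 4 (adjusted p = 0.0596, 0.0743 and 0.0646), nor in a fit of these 2 groups alone (adjusted p = 0.0717). Folr2 ranged from 0.748 to 1.72 CPM in Ad-CTRL Pema livers and from 0.650 to 0.771 CPM in Ad-FAT10 Pema livers. It fell by 0.94 on the log2 scale (SE 0.27, edgeR adjusted p = 0.0107), with groups that touched at 1 Ad-CTRL liver.

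Cd5l measured 162.4, 92.6, 112.3 and 133.8 CPM in Ad-CTRL Pema and 152.8, 179.3, 312.0 and 199.98 CPM in Ad-FAT10 Pema livers. It rose 1.68-fold (log2 change 0.75 ± 0.21, edgeR adjusted p = 0.00738), with 1 Ad-FAT10 liver inside the Ad-CTRL range. Spic measured 4.30, 2.72, 2.05 and 3.57 CPM against 5.48, 5.72, 9.26 and 5.40 CPM, with no overlap, and rose 2.05-fold (log2 change 1.03 ± 0.21, edgeR adjusted p = 0.000979). Id3 measured 95.7, 107.4, 98.8 and 89.9 CPM against 68.8, 50.8, 67.8 and 33.2 CPM, again with no overlap, and fell 1.78-fold (log2 change -0.83 ± 0.23, edgeR adjusted p = 0.00785). Nr1h3, the LXRα gene, did not pass the test (log2 change -0.17 ± 0.09, edgeR adjusted p = 0.145). It ranged from 109.4 to 132.4 CPM in Ad-CTRL Pema and from 97.6 to 125.9 CPM in Ad-FAT10 Pema livers, and without Ad-FAT10 Pema mouse 1 it was called lower (log2 change -0.26, adjusted p = 0.0168).

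Of the 10 genes, 5 were lower with no overlap under pemafibrate (Clec4f, Timd4, Vsig4, Cd163 and Id3), where 18.0% of all genes tested were, and 1 was higher with no overlap (Spic), where 19.0% were. Without scaling factors, the median of all genes in the adenovirus comparisons moved up by 0.29 log2 units under CMC and by 0.36 under pemafibrate. Tested against 0, with no allowance for that shift, Marco, Folr2 and Id3 no longer passed under pemafibrate (edgeR adjusted p = 0.0843, 0.0933 and 0.114). Nr1h3 changed sign to 0.19 there, which lay below the shifted median of all genes, 0.34. Clec4f, Timd4, Vsig4, Cd163, Cd5l and Spic kept their calls and directions without scaling factors, in each other alternative run and without any 1 library.

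**Figure D2:**
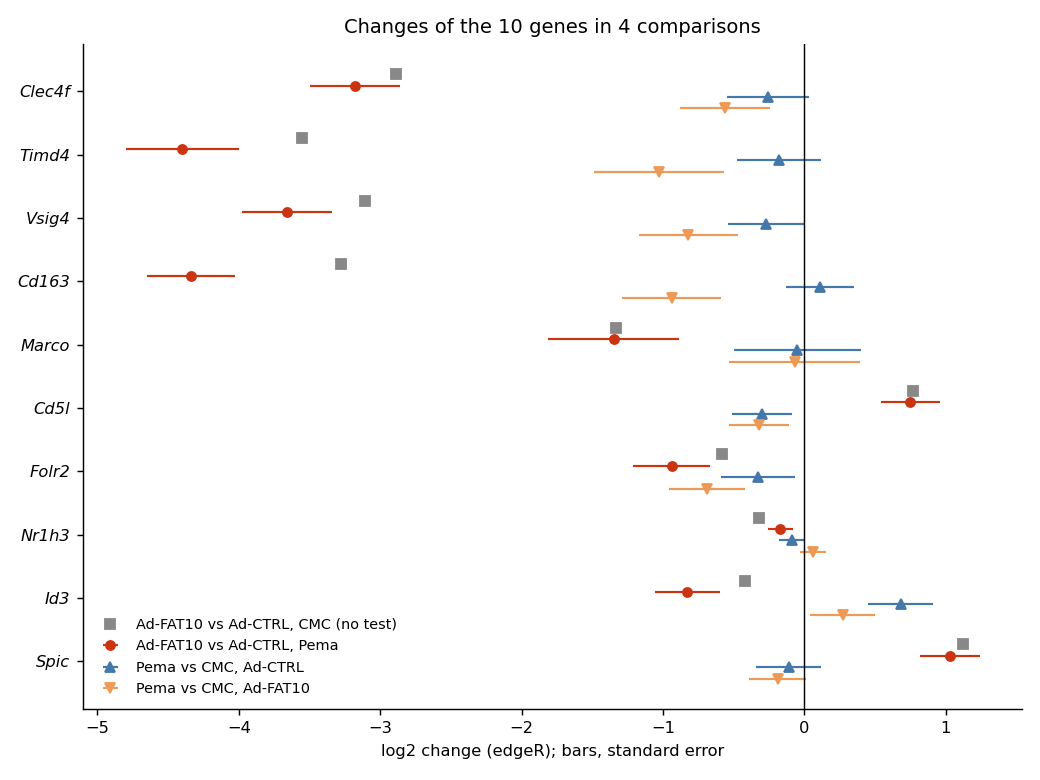
Log2 change of the 10 genes in 4 comparisons, with bars of 1 standard error from edgeR. The adenovirus contrast under CMC (grey squares) has no bars because it chose the genes, and the 4 receptors Clec4f, Timd4, Vsig4 and Cd163 lie below -2.8 in both adenovirus contrasts while both pemafibrate contrasts lie at or above -1.03.

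Genes expressed by macrophages in general moved against the 4 receptors. Of 15 such genes, 11 rose and 0 fell in Ad-FAT10 livers under CMC, and 13 rose and 0 fell under pemafibrate. Under CMC 22.5% of all genes tested were called higher and 20.2% lower (42.6% in either direction), and under pemafibrate 21.2% and 20.5%. Cd14, the co-receptor for lipopolysaccharide, rose by 2.36 ± 0.16 log2 units under CMC (edgeR adjusted p = 3.49e-08) and by 1.85 ± 0.15 under pemafibrate (adjusted p = 2.83e-07). Mpeg1, a pore-forming protein of phagocytes, rose by 1.45 ± 0.20 and 1.35 ± 0.20 log2 units (adjusted p = 3.05e-05 and 6.66e-05). Adgre1, which encodes F4/80 and is named here after its values were seen, did not pass the test in either contrast (log2 change 0.57, adjusted p = 0.0579, and 0.48, adjusted p = 0.112). With the control virus the summed level of the 15 genes was 673.1 to 887.9 CPM under CMC and 651.8 to 797.0 CPM under pemafibrate, and with Ad-FAT10 it was 1367 to 1799 CPM and 1020 to 1842 CPM. No Ad-FAT10 liver had a sum within the Ad-CTRL range.

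The levels of the 10 genes were also expressed as a percentage of that sum, which shifts all of them down by the same factor in a library where the sum is high. Clec4f was 11.2% ± 1.72 (SD, n = 4) of the sum under CMC and 10.5% ± 2.29 under pemafibrate with the control virus, but 0.744% ± 0.258 and 0.607% ± 0.368 with Ad-FAT10. Timd4 was 1.65% ± 0.208 and 1.63% ± 0.215 of the sum with the control virus, under CMC and pemafibrate, and 0.0699% ± 0.0443 and 0.0344% ± 0.0160 with Ad-FAT10. Cd5l differed little on this scale, with 19.5% ± 3.30 and 17.8% ± 3.10 against 16.8% ± 1.596 and 14.96% ± 1.603. Spic kept close to 1 level, at 0.432% ± 0.0417 and 0.448% ± 0.110 with the control virus and 0.474% ± 0.0340 and 0.464% ± 0.0658 with Ad-FAT10. The summed genes moved unequally. Mpeg1, the largest term, averaged 213 CPM in Ad-CTRL CMC and 582 CPM in Ad-FAT10 CMC livers, whereas C1qa averaged 65.0 and 66.5 CPM. The percentages therefore depend on which macrophage genes are summed. The percentage of the sum was lower with Ad-FAT10 for Nr1h3 (16.1% ± 1.56 against 6.54% ± 0.585 under CMC), Id3 (7.91% ± 2.85 against 3.00% ± 1.19) and Folr2 (0.214% ± 0.00562 against 0.0723% ± 0.0209), which had differed by less than 1 log2 unit in CPM. With the control virus the ratio of Clec4f to Cd5l in CPM was 0.518 to 0.613 under CMC and 0.524 to 0.649 under pemafibrate, against 0.0250 to 0.0551 and 0.0245 to 0.0750 with Ad-FAT10. These shares and ratios are descriptions, since they contain the values that chose the genes.

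**Figure D3:**
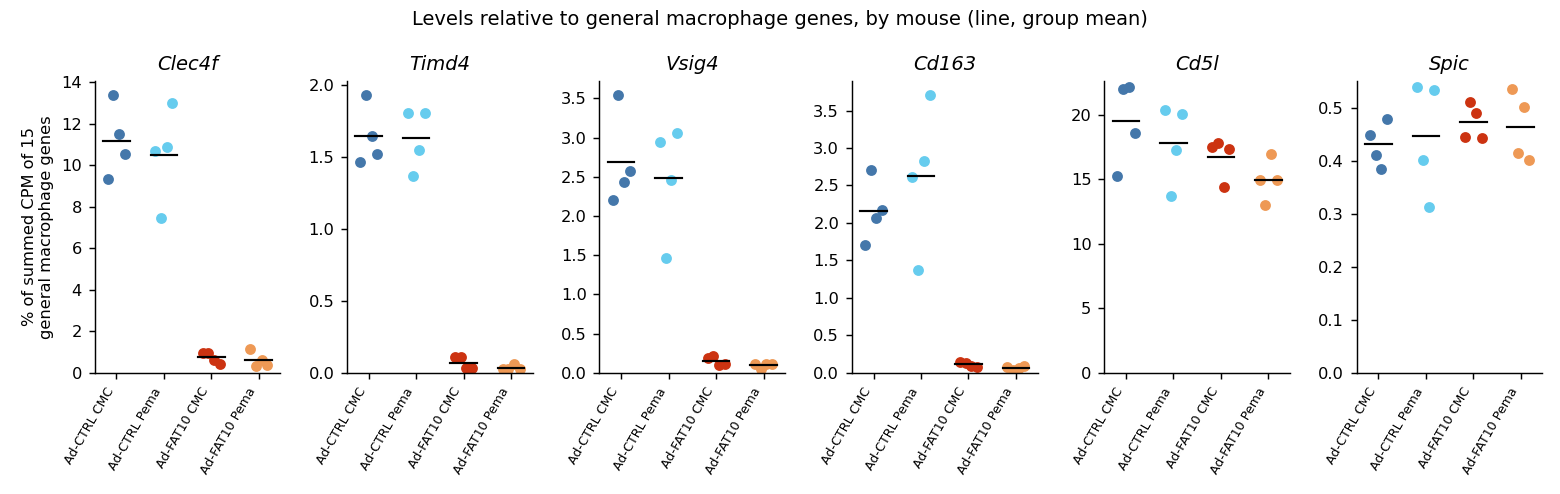
Level of 6 of the genes in each mouse as a percentage of the summed CPM of 15 general macrophage genes, with a line at each group mean and axes that start at 0. Clec4f, Timd4, Vsig4 and Cd163 drop to low percentages in all 8 Ad-FAT10 livers, while the points of Cd5l and Spic overlap across the 4 groups.

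Markers of recruited monocytes and of macrophages that have recently entered the tissue rose together. All 16 listed genes were called higher in Ad-FAT10 livers under CMC, and 15 of 16 under pemafibrate. Of all genes tested, 22.5% and 21.2% were called higher. The lists were chosen with earlier results of these data known, so these counts are descriptions. Gpnmb, a glycoprotein of lipid-laden macrophages, went from 0.185 to 0.370 CPM in Ad-CTRL CMC to 4.72 to 7.11 CPM in Ad-FAT10 CMC livers (log2 change 4.20 ± 0.39, edgeR adjusted p = 6.84e-07). Lgals3, which encodes galectin-3, rose by 2.06 ± 0.21 and 2.29 ± 0.21 log2 units (adjusted p = 1.49e-06 and 7.95e-07). The summed level of the 16 markers was 99.0 to 131.3 CPM in the 8 Ad-CTRL livers and 243.4 to 402.4 CPM in the 8 Ad-FAT10 livers. Neutrophil markers were called higher in 8 of 8 and 5 of 8 tested genes, and T and NK cell markers in 8 of 10 under both treatments. How much these cells contributed to the values of the 10 genes was not tested.

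Other genes known from resident Kupffer cells were split. Of 20 such genes outside the 10, 6 rose and 6 fell in Ad-FAT10 livers under CMC, with a median log2 change of 0.01, and 7 rose and 5 fell under pemafibrate, with a median of 0.11. The shares of all genes called were 22.5% higher and 20.2% lower under CMC, and 21.2% and 20.5% under pemafibrate. Nothing particular to the list is therefore read from these counts. The values are of whole liver, and the cells behind each of them were not resolved. Cxcl13, a chemokine that attracts B cells, lay at 0.823 to 2.12 CPM in Ad-CTRL CMC livers and at 0 to 0.0382 CPM, below the floor of 3 counts, in Ad-FAT10 CMC livers, and was called lower (edgeR adjusted p = 5.15e-06). Kcna2, a potassium channel gene, fell by 2.26 ± 0.36 log2 units under pemafibrate (adjusted p = 0.000112). In the other direction, Il18bp, the secreted antagonist of interleukin-18, rose by 1.42 ± 0.19 and 1.54 ± 0.19 log2 units (adjusted p = 2.34e-05 and 1.35e-05). Vcam1, an adhesion molecule, rose by 1.06 ± 0.22 and 1.18 ± 0.22 log2 units (adjusted p = 0.000893 and 0.000343). Clec1b, the podoplanin receptor, was singled out after its values were seen and did not pass the test (log2 change 0.06, adjusted p = 0.841, and 0.42, adjusted p = 0.11).

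Genes of signals that keep the Kupffer cell niche were called lower more often than higher. Of 8 such ligand genes, 5 fell and 2 rose in Ad-FAT10 livers under CMC, and 5 fell and 1 rose under pemafibrate. For this and the other lists of this paragraph, the shares of all genes tested were 20.2% lower and 22.5% higher under CMC. Under pemafibrate they were 20.5% and 21.2%. Gdf2, which encodes BMP9, fell by 0.79 on the log2 scale under CMC (SE 0.14, edgeR adjusted p = 0.000318) and by 0.75 under pemafibrate (SE 0.14, adjusted p = 0.000483). Bmp10 fell by 0.99 and by 0.81 (SE 0.23 and 0.22, adjusted p = 0.00207 and 0.00656). Il34, a ligand of the CSF1 receptor, fell by 0.73 under CMC (SE 0.18, adjusted p = 0.00363), whereas Tgfb1 rose by 0.72 ± 0.19 and 0.74 ± 0.19 log2 units (adjusted p = 0.00474 and 0.00382). Among 12 receptors and transducers of these signals, 5 rose and 2 fell under CMC, and 2 rose and 3 fell under pemafibrate. Acvrl1, the ALK1 receptor for BMP9 and BMP10, rose by 0.90 ± 0.18 and 0.97 ± 0.18 log2 units (adjusted p = 0.000767 and 0.000418), while its co-receptor Eng fell by 0.75 and 0.65 (SE 0.13 and 0.13, adjusted p = 0.00018 and 0.000582). Markers of the cells that make many of these ligands moved as well. Of 8 sinusoidal endothelial markers, 6 fell under each treatment, and of 8 stellate cell markers, 6 and 5 fell. The summed level of the endothelial markers was 201.4 to 290.3 CPM in Ad-CTRL CMC and 119.5 to 174.9 CPM in Ad-FAT10 CMC livers. The part of these cells in the values of the niche signals was not tested.

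Lists tied to the regulators and functions of Kupffer cells gave mixed counts. Of all genes tested, 22.5% were called higher and 20.2% lower under CMC, and 21.2% and 20.5% under pemafibrate. Some listed transcripts far exceeded macrophage markers in Ad-CTRL CMC livers, such as Apoe at 21553 CPM and Trf at 17441 CPM, against 213 CPM for Mpeg1. The lists therefore describe whole liver, and the cells behind each value were not resolved. Of 11 macrophage transcription factors, 4 rose and 3 fell under CMC and 3 rose and 3 fell under pemafibrate. Spi1, the PU.1 gene, rose by 1.14 ± 0.15 and 1.22 ± 0.15 log2 units (edgeR adjusted p = 1.75e-05 and 1.21e-05), and Irf8 by 1.27 ± 0.17 and 1.07 ± 0.17 (adjusted p = 2.61e-05 and 0.000124). Of 10 targets of LXR, the receptor family to which Nr1h3 belongs, 5 fell and 2 rose under both treatments. Apoe fell by 0.73 and by 0.66 on the log2 scale (SE 0.13 and 0.13, adjusted p = 0.000359 and 0.000897), and Abcg1, a sterol transporter, rose by 0.82 ± 0.21 and 0.91 ± 0.21 log2 units (adjusted p = 0.00514 and 0.00247). Of 12 genes of haem and iron recycling, a function shared by CD163 and SPIC, 5 rose and 0 fell under CMC, and 4 rose and 1 fell under pemafibrate. Slc11a1, a metal transporter of phagosomes, rose by 1.30 ± 0.17 and 1.42 ± 0.17 (adjusted p = 2.11e-05 and 1.18e-05), and Hmox1, the inducible haem oxygenase, by 1.26 ± 0.19 and 0.89 ± 0.19 log2 units (adjusted p = 7.19e-05 and 0.00127). Of 14 scavenger and clearance receptors, 4 rose and 5 fell under CMC and 3 rose and 4 fell under pemafibrate. Msr1, the scavenger receptor A gene related to Marco, rose by 0.89 ± 0.14 log2 units under CMC (adjusted p = 6.8e-05). Hepatocyte markers fell in 6 and 8 of 10 genes, B and plasma cell markers in 4 and 3 of 6, and dendritic cell markers were called lower in 1 and 1 and higher in 0 and 3 of 7. Of 5 cholangiocyte markers, 1 rose under CMC and 0 passed under pemafibrate. Some genes stand in 2 of these lists, and the lists were not refitted without scaling factors.

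**Figure D4:**
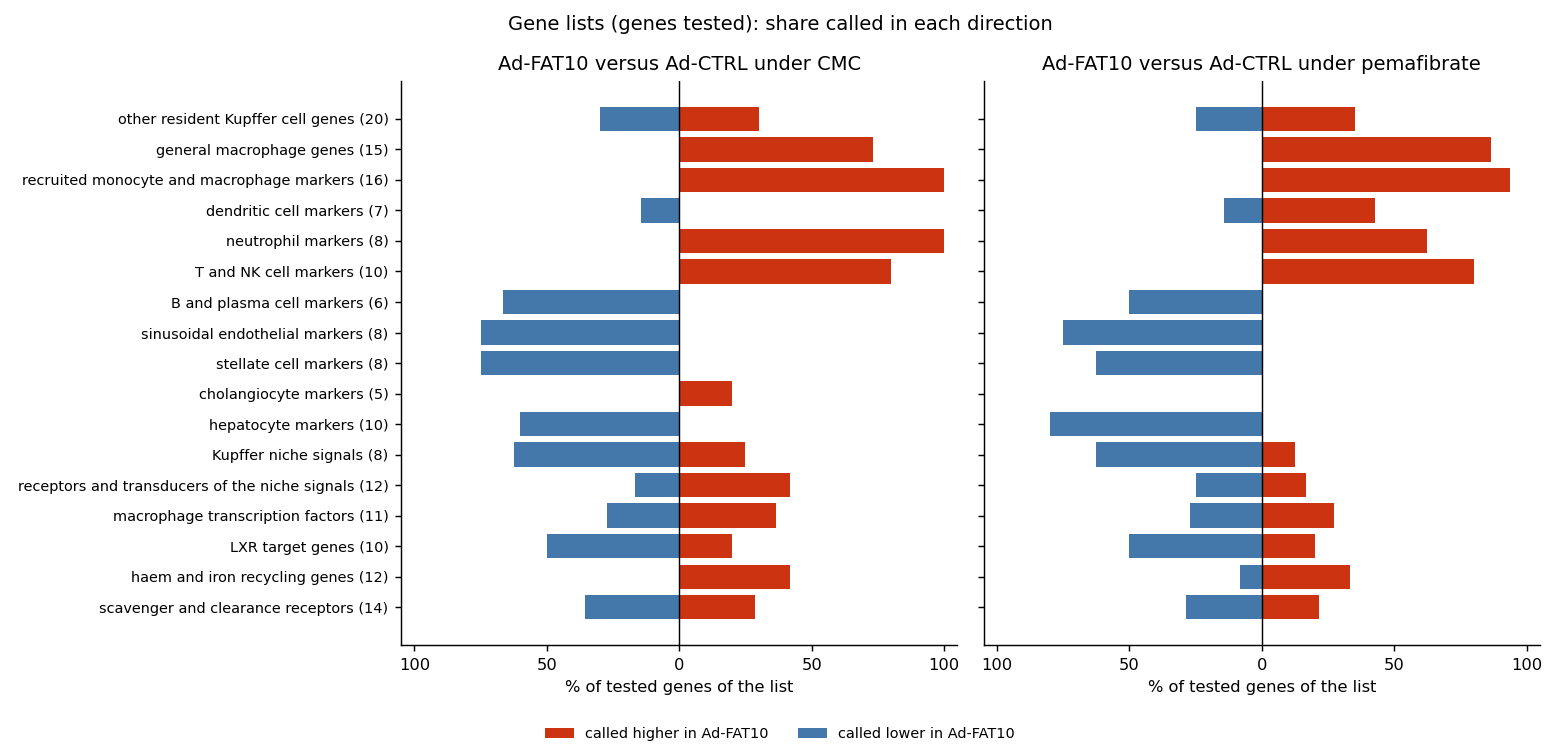
Percentage of the tested genes of each list called higher (red, to the right) or lower (blue, to the left) in Ad-FAT10 livers, with the number of genes tested in brackets. All 16 recruited monocyte and macrophage markers are called higher under CMC, while 6 of 20 other resident Kupffer cell genes are called in each direction.

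Pemafibrate moved the Kupffer cell genes little in mice with the control adenovirus. Id3 was the 1 gene of the 10 called, where 30.6% of all genes tested were. It measured 66.05, 79.3, 45.1 and 53.7 CPM in Ad-CTRL CMC and 95.7, 107.4, 98.8 and 89.9 CPM in Ad-CTRL Pema livers, which did not overlap. It rose 1.61-fold (log2 change 0.68 ± 0.23, edgeR adjusted p = 0.031). The call was lost without Ad-CTRL CMC mouse 3 or 4 (adjusted p = 0.103 and 0.0854), without Ad-CTRL Pema mouse 2 or 3 (0.072 and 0.0615) and without scaling factors (0.0701). Id1, a gene of the same family in the list of transcription factors, rose by 1.78 ± 0.28 log2 units in Ad-CTRL (adjusted p = 8.78e-05) and by 1.16 ± 0.27 in Ad-FAT10 livers (adjusted p = 0.00374). Clec4f (-0.26 ± 0.29), Timd4 (-0.18 ± 0.30), Vsig4 (-0.27 ± 0.27) and Cd163 (0.11 ± 0.24) had log2 changes within 1 SE of 0 or at it, and their edgeR adjusted p lay between 0.507 and 0.779. Marco, Cd5l, Folr2, Nr1h3 and Spic changed by -0.33 to -0.05 log2 units and did not pass the test either (adjusted p = 0.308 to 0.956).

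Among the lists, pemafibrate in Ad-CTRL livers gave calls in 1 of 20 other resident Kupffer cell genes and 2 of 15 general macrophage genes. Jag1, a Notch ligand, rose by 1.67 ± 0.18 log2 units in Ad-CTRL (edgeR adjusted p = 9.86e-07) and by 1.13 ± 0.18 in Ad-FAT10 livers (adjusted p = 0.000134). LXR targets were called higher in 4 and 3 of 10 genes, with 0 lower, where 16.2% and 12.9% of all genes tested were called higher and 14.4% and 12.5% lower. Among them was Lpcat3, an enzyme of phospholipid remodelling, which rose by 1.15 ± 0.14 and 1.14 ± 0.14 log2 units (adjusted p = 7.39e-06 and 1.3e-05). Cd36, the fatty acid transporter in the scavenger list, rose by 2.79 ± 0.20 and 2.53 ± 0.20 log2 units (adjusted p = 1.17e-08 and 4.63e-08).

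In Ad-FAT10 livers, 0 of the 10 genes were called after pemafibrate by edgeR, where 25.4% of all genes tested were, while 4 had an unadjusted p under 0.05. These were Cd163 (log2 change -0.94 ± 0.35, adjusted p = 0.0533), Folr2 (-0.69 ± 0.27, adjusted p = 0.0732), Vsig4 (-0.82 ± 0.35, adjusted p = 0.0964) and Timd4 (-1.03 ± 0.46, adjusted p = 0.119). Cd163 measured 2.57, 2.03, 1.34 and 1.13 CPM under CMC and 0.811, 0.496, 1.07 and 1.17 CPM under pemafibrate, so the groups overlapped by 1 liver. The 0 depended on the settings. DESeq2 called 2 genes lower, Vsig4 and Cd163 (adjusted p = 0.0396 and 0.0124), and edgeR without the filter on low counts called 3, Timd4, Vsig4 and Cd163 (adjusted p = 0.0305, 0.0189 and 0.00774). Without Ad-FAT10 CMC mouse 4 the same 3 genes were called, and without Ad-FAT10 Pema mouse 3 the calls were Timd4, Vsig4 and Cd5l. Leaving out Ad-CTRL Pema mouse 2 or 4 or Ad-FAT10 CMC mouse 2 or 3 gave 1 or 2 calls from Cd163 and Folr2. Clec4f changed by -0.56 ± 0.32 log2 units (adjusted p = 0.223), and Cd5l, Spic, Id3, Nr1h3 and Marco by -0.32 to 0.27. Neutrophil markers differed between these same groups, with 8 of 8 tested genes lower under pemafibrate, for example Retnlg by -1.94 ± 0.34 log2 units (adjusted p = 0.000398). Recruited monocyte and macrophage markers were called lower in 2 of 16. Ubd differed between these groups too, at 110.5 to 339.3 CPM under CMC and 391.3 to 545.8 CPM under pemafibrate. Drug and Ubd level cannot be told apart in this contrast.

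Whether the response to pemafibrate differed between the viruses was tested by the interaction term, and 0 of the 10 genes passed with edgeR, with DESeq2 and in every other alternative run. Of all genes tested, 0.156% did, 0.0271% with a higher and 0.129% with a lower response in Ad-FAT10 livers. The gene with an unadjusted p under 0.05 was Cd163, whose response was lower in Ad-FAT10 than in Ad-CTRL livers by -1.06 ± 0.42 log2 units (edgeR adjusted p = 0.383). For Timd4 the difference between responses was -0.85 ± 0.55, for Vsig4 -0.56 ± 0.44 and for Clec4f -0.29 ± 0.43 log2 units (adjusted p = 0.612, 0.692 and 0.855). A difference of 1 log2 unit between responses lay within 2 SE of the estimate for 7 of the 10 genes (Clec4f, Timd4, Vsig4, Cd163, Marco, Folr2 and Id3), so an equal response is not shown.

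Within groups, several of the 10 genes shared their extreme livers. Ad-FAT10 Pema mouse 3 had the highest level of 6 of the 10 genes in its group (Timd4, Vsig4, Marco, Cd5l, Folr2 and Spic) and also the highest sum of general macrophage genes, 1842 CPM. Ad-FAT10 CMC mouse 1 had the highest level of 6, among them Clec4f, Timd4, Vsig4, Cd163 and Cd5l, with a sum of 1799 CPM that was the highest of its group. Ad-FAT10 CMC mouse 4 had the lowest level of 7 and the lowest sum, 1367 CPM. Ad-CTRL Pema mouse 2 had the lowest level of 7, including Clec4f, Timd4, Vsig4, Cd163 and Cd5l, although its sum of 676.0 CPM was not the lowest. Ubd also varied within groups. In Ad-FAT10 CMC mice 1 to 4 it measured 110.5, 166.6, 339.3 and 330.2 CPM. In Ad-CTRL Pema mouse 2 it was the highest of its group, at 47.8 CPM. Ad-FAT10 Pema mouse 1 had both the highest Ubd, 545.8 CPM, and the highest Clec4f of its group. A link of Ubd with the 10 genes within groups was not tested. Under CMC the spread relative to the mean was wider with Ad-FAT10 for Clec4f, Timd4, Vsig4 and Cd163. The coefficient of variation of Clec4f was 12.2% in Ad-CTRL CMC and 43.2% in Ad-FAT10 CMC livers, and that of Timd4 was 9.3% and 70.0%. For Vsig4 it was 11.4% and 44.7%, and for Cd163 12.1% and 37.2%. The SD itself was smaller with Ad-FAT10, at 10.8 and 5.16 CPM for Clec4f and 1.21 and 0.800 CPM for Timd4. Timd4 rested on 12 to 44 counts in Ad-FAT10 CMC livers, so counting error adds to its spread.

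As a description of likeness, each gene's log2 CPM was centred on its own mean over the 16 libraries and compared with that of Clec4f by the root mean square difference, in log2 units. Of the other 9 genes, Vsig4 (0.36), Cd163 (0.49) and Timd4 (0.66) were nearest, followed by Marco (1.02), Folr2 (1.29), Id3 (1.45), Nr1h3 (1.52), Cd5l (1.98) and Spic (2.14). The 8 nearest genes outside the set, among those with a mean log2 CPM of at least 1, were Slc22a28 (0.63), Ces3b (0.76), Vipr1 (0.86), Sult2a8 (0.87), Hnf4aos (0.88), Serpina3k (0.89), B930025P03Rik (0.91) and Cd300lg (0.93). Slc22a28, a gene of a solute carrier family, averaged 18.6 ± 2.95 CPM under CMC and 9.94 ± 1.82 CPM under pemafibrate with the control virus, and 4.53 ± 2.35 and 1.76 ± 0.450 CPM with Ad-FAT10. Vipr1, a receptor for vasoactive intestinal peptide, averaged 53.3 ± 7.84, 44.2 ± 15.5, 17.9 ± 5.29 and 13.6 ± 2.12 CPM in the same order. In Ad-CTRL CMC livers Serpina3k averaged 11526 CPM and Sult2a8 975 CPM, far above Clec4f at 88.0 CPM, while Slc22a28 and Vipr1 lay below it. The cells that made these transcripts were not resolved, so likeness to Clec4f does not place them in Kupffer cells. These 16 libraries share the virus contrast that dominates the measure, so genes with a similar fall in Ad-FAT10 livers lie near each other by construction.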

How the data were processed

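Per the labels, poly(A)-selected libraries with dUTP strand marking were sequenced from the livers of 16 mice. Per the submitters' processing notes the build was GRCm39 and the tools included DESeq2 (2.11.40.6 and 1.36.0) and STAR 2.7.6. The sources used here do not give the counting tool, its strand setting or the annotation. The deposited values are raw counts of reads per Ensembl gene, 1 table per mouse.

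Groups came from the sample titles. The labels name no batch and do not trace the mice further, so p-values measure the spread between these mice. Of 55416 genes, 25938 had 0 counts in all libraries, and 94% of the IDs were matched to symbols with GENCODE M21 (GRCm38), which also gave exon lengths and overlaps. Replicate libraries differed by far more than sampling noise, with a chi-square per gene of 14.5 or more in every pair.

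Counts were fitted in edgeR 4.0.16 (R 4.3.3) with TMM, filterByExpr and 1 mean per group over 16 libraries (14770 genes, 12 residual degrees of freedom). Quasi-likelihood tests were adjusted by Benjamini-Hochberg over all genes tested and called under 0.05. Standard errors are the absolute log2 change over the square root of F. Of the steps, the edgeR fit was tested on simulated counts. Alternatives were DESeq2 1.42.0, its size factors in edgeR, no filter, the compared groups alone, a replicate block, leaving out each library, and, chosen after seeing the data, library totals with no scaling factor.

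The 10 genes, the 17 lists and the rule for named genes were chosen with earlier results of these data known. Named were all 10 genes, up to 4 genes with the smallest p per list and comparison, and the 8 genes nearest to Clec4f. Promoters are RefSeq windows of 250 bases before the start, found for all 10 genes.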

Additional observations from a re-analysis of the deposited data

Results flagged for a closer look

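In 3 of 40 sets of 4 livers (10 genes in 4 groups) 1 liver stood far from the other three, judged by its gap to the nearest liver relative to the whole range; chance alone gives about 1 in 20. Marco in Ad-CTRL Pema mouse 1 measured 54.8 CPM, while the others measured 19.7 to 23.8 CPM. Nr1h3 in Ad-FAT10 Pema mouse 1 measured 125.9 CPM, against 97.6 to 101.1 CPM in the others. Spic in Ad-FAT10 Pema mouse 3 measured 9.26 CPM, against 5.40 to 5.72 CPM. The call for Marco in Ad-FAT10 against Ad-CTRL livers under pemafibrate was lost without the first of these livers (adjusted p = 0.129, edgeR), and Nr1h3 was called lower without the second (adjusted p = 0.0168, edgeR). Spic remained called in that comparison without any 1 library. The interaction tests of the 10 genes gave 0 calls.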

How the results depend on the processing

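The number of the 10 genes called was 9 for Ad-FAT10 against Ad-CTRL under pemafibrate, 6 to 9 across the alternatives and 8 to 9 with 1 library left out. For pemafibrate in Ad-CTRL livers it was 1, 0 with no scaling factor, and 0 to 1 with 1 library left out. For pemafibrate in Ad-FAT10 livers it was 0, but 3 with no filter and 2 with DESeq2, and 0 to 3 with 1 library left out. For the interaction it was 0 throughout. Under CMC, 6 genes were lower with no overlap of the groups (5 to 6 across alternatives, 6 to 7 with 1 library left out) and 2 were higher in all of these. Signs turned in values near 0. With no scaling factor Nr1h3 in the adenovirus contrast under pemafibrate was 0.1885. The interaction of Marco was 0.0028 with DESeq2 size factors, 0.0065 with no filter and 0.065 with no scaling factor, and that of Cd5l was 0.0062, 0.009 and 0.0614 in the same order and 0.0046 with DESeq2. With 1 library left out, log2 changes with pemafibrate in Ad-CTRL livers were -0.0659 to 0.333 for Cd163, -0.504 to 0.1477 for Marco and -0.2885 to 0.0507 for Spic, and in Ad-FAT10 livers -0.9517 to 0.1875 for Marco and -0.0294 to 0.101 for Nr1h3. The interaction ranged from -0.905 to 0.4311 for Marco, -0.2677 to 0.1315 for Cd5l and -0.3122 to 0.0957 for Spic. The cause was not tested. Same-numbered libraries of different groups showed little shared deviation (24 pairs, correlations from -0.172 to 0.172, 3 over 0.1, and 5 of 16 libraries nearest to their own number). No pairing of the mice by number was detected, but a weak one could be missed by this check. With the replicate block the counts called were 1, 0, 9 and 0 in the order pemafibrate in Ad-CTRL, pemafibrate in Ad-FAT10, adenovirus under pemafibrate and interaction. Depth limits Folr2, with 14 to 41 counts per library, and Timd4, with 6 to 44 counts in Ad-FAT10 livers.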
